A study of Rattus norvegicus with 16 samples.

Results

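The 10 genes described here encode enzymes of glycolysis that exist as isoenzymes in different blood cells, together with a glucose carrier. They are the hexokinases Hk1, Hk2 and Hk3, the phosphofructokinases Pfkl and Pfkp, the aldolase Aldoa, the pyruvate kinase Pklr, the lactate dehydrogenase subunits Ldha and Ldhb, and the glucose transporter Slc2a3. They were picked out by symbol, with earlier results of these data known, and all 10 were found among the 18031 genes listed for every library. Ldha and Slc2a3 each had 2 entries, of which the entry with more counts was used. That entry held 100% and 99.2% of the counts of its symbol.

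The libraries came from whole blood of 16 male Sprague-Dawley rats aged 85 to 90 days. Each animal had 4 subcutaneous saline injections of 1 ml/kg, spaced 2 h apart, with neither food nor water available, and blood was drawn from the heart 3 h after the last of them. All libraries bear the same label, so they form 1 group, saline control, numbered 1 to 16, and no treated group was compared. No rat was untouched, so injection, handling and fasting are common to all. Alpha and beta globin mRNA was depleted before polyadenylated RNA was sequenced. Totals ran from 21466776 to 31189549 estimated counts per library. The file names carry 6 codes, here lettered A to F and called run codes, and the labels do not say what they stand for. Of these, 3 had enough libraries to compare, namely A with 3, B with 5 and D with 4. Code C had 2 libraries, and E and F had 1 each, controls 15 and 16. Those 2 controls therefore add nothing to a result centred within run codes or fitted with the run code as a term.

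Blood cells take up glucose through carriers and break it down to lactate. Mature red cells have no mitochondria and live on glycolysis alone. They use the hexokinase HK1 and the pyruvate kinase encoded by Pklr, which also serves the liver from another promoter of the same gene. Neutrophils also rely mainly on glycolysis and have few mitochondria. HK2 is the inducible hexokinase and HK3 is found mainly in myeloid cells. The L and P subunits of phosphofructokinase are named for liver and platelets. LDHA favours the making of lactate from pyruvate, and LDHB favours the reverse reaction.

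The bases upstream of the hexokinase genes are shown because Hk1 was called on the erythroid level and Hk2 and Hk3 on the neutrophil level in the 16 libraries. RefSeq windows of the rat build GRCr8 matched 9 of the 10 members by symbol, with 12 windows in all, since Hk1 has 2 annotated starts and Aldoa 3. Slc2a3 was not matched. The 250 bases before each start are written from 5′ to 3′ along the gene. Capitals mark the letters bound by GATA factors, which drive erythroid and megakaryocytic genes, searched on both strands with the letters AGATAA or TGATAA and likewise with AGATAG or TGATAG.
Hk1 (start 1), chr20:30874815-30875064, minus strand: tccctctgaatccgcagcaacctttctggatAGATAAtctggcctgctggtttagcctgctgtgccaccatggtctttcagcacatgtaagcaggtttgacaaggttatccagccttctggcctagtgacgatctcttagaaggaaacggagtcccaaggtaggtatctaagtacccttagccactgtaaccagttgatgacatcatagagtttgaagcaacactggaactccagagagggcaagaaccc
Hk1 (start 2), chr20:30842073-30842322, minus strand: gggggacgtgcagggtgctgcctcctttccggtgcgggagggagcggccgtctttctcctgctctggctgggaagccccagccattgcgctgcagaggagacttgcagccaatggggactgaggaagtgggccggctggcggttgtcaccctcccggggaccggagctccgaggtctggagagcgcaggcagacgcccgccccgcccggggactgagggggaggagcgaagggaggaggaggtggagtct
Hk2, chr4:116841276-116841525, minus strand: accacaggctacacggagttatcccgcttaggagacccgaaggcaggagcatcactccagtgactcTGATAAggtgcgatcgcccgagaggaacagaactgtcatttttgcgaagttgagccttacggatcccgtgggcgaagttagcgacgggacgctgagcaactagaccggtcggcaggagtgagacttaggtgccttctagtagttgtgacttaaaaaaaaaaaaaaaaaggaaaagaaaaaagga
Hk3, chr17:9604781-9605030, plus strand: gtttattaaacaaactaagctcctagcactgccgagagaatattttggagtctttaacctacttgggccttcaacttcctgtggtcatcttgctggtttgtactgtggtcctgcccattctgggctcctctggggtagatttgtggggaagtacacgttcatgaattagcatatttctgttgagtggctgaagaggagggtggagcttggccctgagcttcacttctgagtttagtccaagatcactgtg
GATA letters stood in the windows of Hk1 (start 1) and Hk2, beginning 219 and 184 bases before the start. That made 2 of the 12 windows of the members, and 27.0% of all 33469 windows of this length held them. The E-box CACGTG was in 1 of the 12 windows, that of Ldha, against 5.59% of all windows. The letters TTGCNNAA, bound by C/EBP factors of myeloid cells, were in the window of Ldhb and in 9.22% of all windows. The single window of Pklr was searched but is not shown, since the table does not say whether it belongs to the red-cell or the liver promoter. Which of the 2 starts of Hk1 is used in red cells is not stated either. A match describes the letters only, and no binding was measured in these samples.

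Levels are given as normalized counts, that is, rounded estimated counts divided by a size factor per library. Without transcript lengths the members were not ranked against each other. Across the 16 rats the coefficient of variation of the members had a median of 46.7%, compared with 24.8% over all 8672 genes that averaged 100 or more normalized counts. The glucose transporter Slc2a3 varied most in fold, by 33.3 times between its lowest and highest library, followed by Ldhb with 28.6, Hk2 with 28.2 and Hk3 with 24.4. The least variable member was Pfkp, by 2.30 times and with a coefficient of 22.3%.

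**Figure D1:**
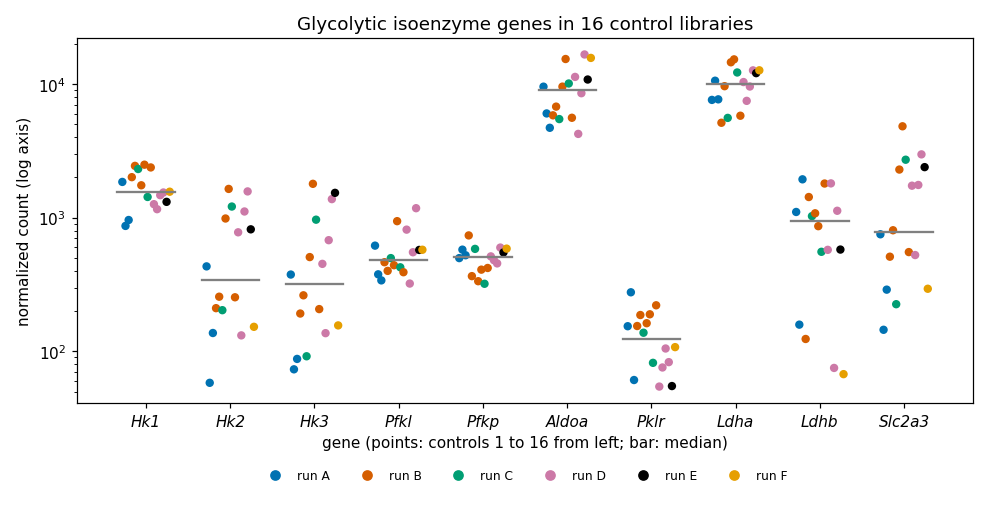
Normalized counts (log axis) of the 10 members, with 1 point per library, controls 1 to 16 from left to right within each gene, coloured by run code, and a grey bar at the median. Slc2a3, Hk2, Hk3 and Ldhb spread over more than 20-fold, and Pfkp over 2.30-fold.

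To learn which blood cells each isoenzyme varied with, a level was computed per library for markers of 6 cell types, as the mean log2 normalized count of a marker list, and the slope of every gene on that level was fitted. A slope of 1 means that the gene doubled when the markers doubled. The neutrophil level (13 markers, among them S100a8, S100a9 and Mmp8) ran from 9.42 in control 6 to 14.25 in control 8. The erythroid level (14 markers, among them Alas2 and Slc4a1) ran from 12.02 in control 11 to 13.91 in control 10. More cells of a type and more RNA per cell cannot be told apart in whole blood. Across the 16 libraries these 2 levels had a correlation of -0.10, given as a description.

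The neutrophil level went with most of the members. Of the 10 genes, 6 were higher where the neutrophil level was higher and none was lower, and 15.7% of the 10920 genes tested were called in that direction (1716 higher and 1246 lower in all, or 1063 and 67 with scaling by total counts). Slc2a3, Hk2 and Hk3 rose in nearly equal proportion to the markers, and Ldha, Aldoa and Pfkl rose with a shallower slope. The median slope of the members was 0.23 and that of all genes tested was -0.03.

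Slc2a3, the high-affinity glucose carrier GLUT3, had 145 normalized counts in control 2, a median of 778 and 4822 in control 8. Hk3 had 73.4 in control 2, a median of 319 and 1791 in control 8. Hk2 had 58.2 in control 2, a median of 344 and 1640.2 in control 8. All 3 were therefore lowest and highest in the same libraries. The slope on the neutrophil level was 1.00 ± 0.06 (SE) for Slc2a3, with an adjusted p of 1.6e-09 by the quasi-likelihood test of edgeR. For Hk3 it was 1.00 ± 0.07 (adjusted p = 7.9e-09) and for Hk2 0.90 ± 0.09 (adjusted p = 9.1e-07). All 3 stayed past the threshold under each of the 21 alternatives tried.

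The correlations with the neutrophil level were of the same kind. Pearson's r was 0.98 for Slc2a3, 0.96 for Hk3 and 0.93 for Hk2 (adjusted p = 0.00025 each over 10920 genes, two-sided, 100000 permutations). Spearman's rho was 0.98, 0.95 and 0.90, with adjusted p of 0.00036, 0.00036 and 0.00099 by permutation. Without controls 8 and 14, which lay farthest from the median level, r was 0.97, 0.95 and 0.91, and after centring within run codes it was 0.98, 0.96 and 0.93. The widest step in the middle of the neutrophil level lay between 11.35 and 12.10, with 9 libraries below it and 7 above. Below the step r was 0.89 for Slc2a3, 0.84 for Hk3 and 0.62 for Hk2, and above it 0.97, 0.86 and 0.81, given without a test.

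**Figure D2:**
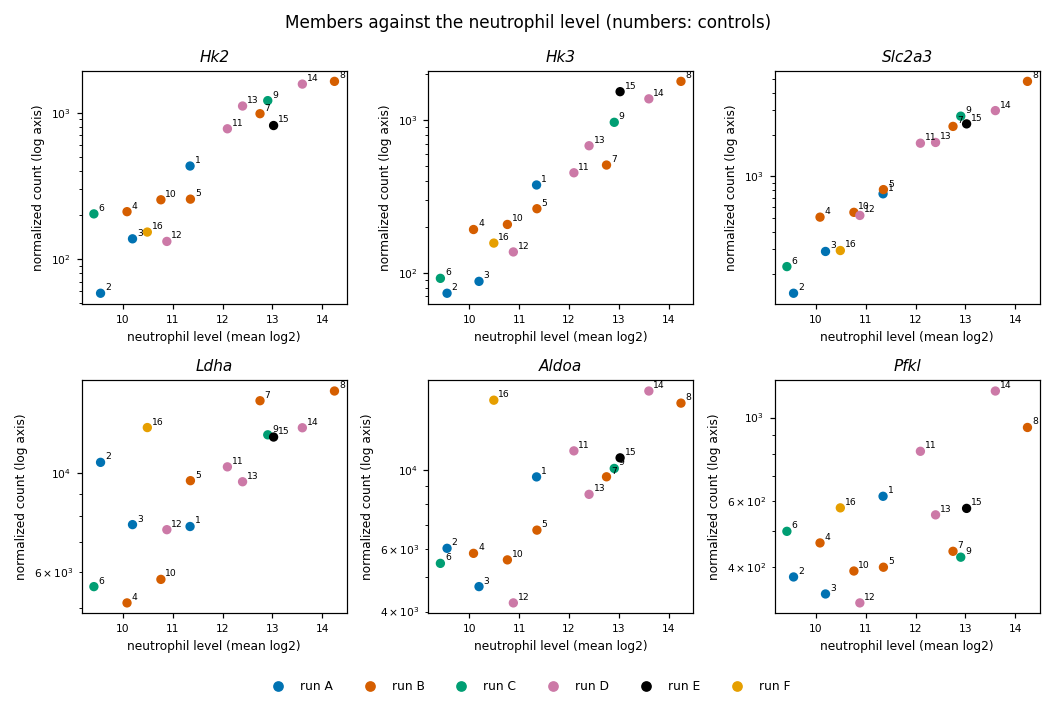
Normalized counts (log axis) of 6 members against the neutrophil level, the mean log2 normalized count of 13 neutrophil markers, with 1 numbered point per control, coloured by run code. Slc2a3, Hk3 and Hk2 lie close to a line from control 2 or 6 to control 8, while Ldha, Aldoa and Pfkl scatter more widely and control 16 stands high for Aldoa.

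Ldha, whose product turns pyruvate to lactate, had 5125 normalized counts in control 4, a median of 9975 and 15268 in control 8. Its slope on the neutrophil level was 0.22 ± 0.06 (adjusted p = 0.012). Aldoa, the main aldolase outside the liver, had 4230.1 in control 12, a median of 9033 and 16612 in control 14. Its slope was 0.29 ± 0.08 (adjusted p = 0.011). Control 16 held 15656 counts of Aldoa at a neutrophil level of only 10.49, and its platelet level, 11.90, was the highest of the series. Without control 16 the slope of Aldoa was 0.35 ± 0.06 (adjusted p = 0.00015). The part of platelet RNA in this value was not tested.

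Pfkl had 321 normalized counts in control 12, a median of 481 and 1177 in control 14. Its slope was 0.24 ± 0.07 (adjusted p = 0.012), and the call was lost without control 8 (adjusted p = 0.054) and with scaling by total counts (adjusted p = 0.064). Pearson's r was 0.73 for Ldha, 0.72 for Aldoa and 0.64 for Pfkl (adjusted permutation p = 0.011, 0.013 and 0.032), and rho was 0.67, 0.69 and 0.52 (adjusted permutation p = 0.030, 0.024 and 0.13). Without controls 8 and 14, r fell to 0.64, 0.57 and 0.35, and the adjusted permutation p values were then 0.083, 0.14 and 0.44. Centred within run codes, r was 0.84, 0.88 and 0.63 (adjusted permutation p = 0.042, 0.0070 and 0.052). RefSeq names 30 pseudogenes for Ldha, 9 for Aldoa and 1 for Ldhb. Reads shared with such copies could be divided among entries, so these genes are less certain than the other members.

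The remaining 4 members, Hk1, Pfkp, Pklr and Ldhb, had no slope on the neutrophil level past the threshold. Pfkp had 320.2 normalized counts in control 9, a median of 506 and 736 in control 4. Its slope was -0.10 ± 0.05 (adjusted p = 0.16), and it passed as a lower gene when control 14 was left out (-0.14, adjusted p = 0.048). The slope of Hk1 was 0.03 ± 0.07 (adjusted p = 0.80).

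Isoenzymes of the same step were compared directly through their log2 ratio in each library, which does not depend on scaling. The permutation tests of 3 ratios against the erythroid level, the neutrophil level and their difference were added after the values had been seen. Their p-values were adjusted over these 9 relations. These tests use the same counts as the slopes of the single genes and give no independent support. Hk1 ranged from 0.856 times Hk3 in control 15 to 25.2 times in control 6. This ratio fell with the neutrophil level, with r = -0.94 and rho = -0.95 (adjusted permutation p = 4.5e-05 for both, 16 libraries). Without controls 8 and 14, r was -0.93, and centred within run codes it was -0.97. Against the difference between the erythroid and neutrophil levels, in which scaling cancels, r was 0.97 and rho 0.95 (adjusted permutation p = 4.5e-05 for both), and r was 0.96 without controls 6 and 14. Against the erythroid level alone r was 0.36 and rho 0.28 (adjusted permutation p = 0.30 and 0.53).

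The ratio of Pfkl to Pfkp ran from 0.630 in control 4 to 2.30 in control 8. It rose with the neutrophil level, with r = 0.87 and rho = 0.85 (adjusted permutation p = 6.0e-05 and 0.00021), and r was 0.77 without controls 8 and 14 and 0.90 within run codes. The ratio of Hk2 to Hk3 ran from 0.533 in control 15 to 2.21 in control 6. With the neutrophil level it gave r = -0.15 and rho = -0.12 (adjusted permutation p = 0.74 and 0.88). Thus Hk1 and Hk3, and Pfkl and Pfkp, differed in how they followed the neutrophil markers, and a difference between Hk2 and Hk3 was not detected.

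The erythroid level went with a single member. Hk1 was higher where erythroid markers were higher, the other 9 genes did not pass the test, and 7.25% of the 10920 genes tested were called in that direction. Hk1 had 867 normalized counts in control 2, a median of 1553 and 2489 in control 8. The 6 highest values were those of controls 4, 5, 6, 8 and 10, in runs B and C, and of control 1. Its slope was 0.61 ± 0.12 (adjusted p = 0.0021), a 1.53-fold rise for each doubling of the markers. Pearson's r was 0.83 and rho 0.86 (adjusted permutation p = 0.0026 and 0.0044). Without controls 5 and 10, r was 0.79 (adjusted permutation p = 0.063).

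The erythroid level moved with the run code. It was between 13.05 and 13.91 in the 5 libraries of run B and between 12.02 and 12.49 in the 4 of run D. Centred within run codes, r of Hk1 was 0.69 (permutation p = 0.025, adjusted p = 0.79). With the run code as a term the slope was 0.66 ± 0.25 (adjusted p = 0.81). In that edgeR fit no gene of 10920 passed, with 517 at an unadjusted p under 0.05, and DESeq2 was not run with this term. With scaling by total counts the slope was 0.61 (adjusted p = 0.21). The direction and size of the Hk1 slope were thus alike, between 0.54 and 0.67 in the 21 alternatives, but its call was lost with the run code as a term.

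Pklr, the pyruvate kinase of red cells and liver, had 54.5 normalized counts in control 11, a median of 123 and 277 in control 2, followed by 221 in control 10. Its slope on the erythroid level was 0.66 ± 0.24 (adjusted p = 0.15), with r = 0.69 and rho = 0.66 (adjusted permutation p = 0.054 and 0.11). Control 2 stood apart from the other 15, with the highest Pklr at an erythroid level of 12.23. In that library all 12 liver markers were highest. Their sum was 540211 normalized counts, compared with 72964 in control 8, the next highest, and a median of 13654.

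Without control 2 the slope of Pklr was 0.97 ± 0.14 (adjusted p = 0.00026), and without controls 2 and 12 together it was 0.95 (adjusted p = 0.00064). With the run code as a term it was 0.58 ± 0.42 (adjusted p = 1.00). The part of liver RNA in the value of control 2 was not tested. Control 12 was highest for all 4 thymus markers and 5 of 6 fat markers, and control 10 for 7 of 8 cardiac muscle markers.

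**Figure D3:**
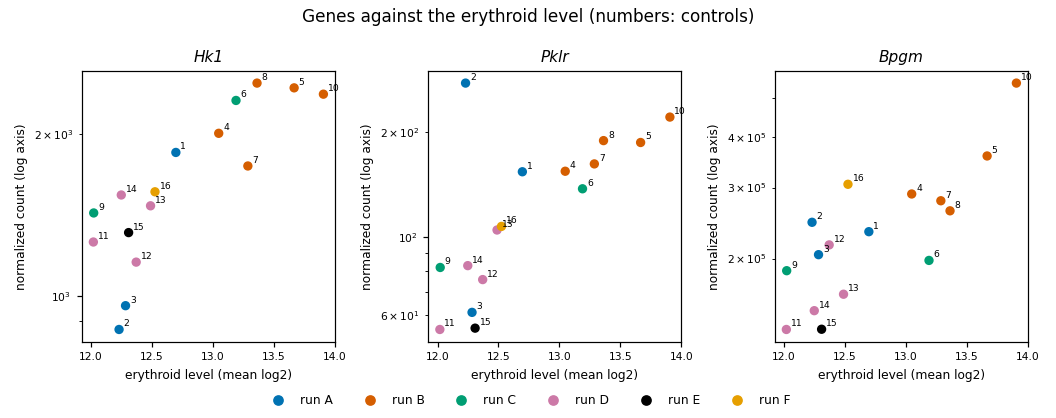
Normalized counts (log axis) of Hk1, Pklr and Bpgm against the erythroid level, the mean log2 normalized count of 14 erythroid markers, with 1 numbered point per control, coloured by run code. Run B lies to the right of run D, and control 2 lies far above the other libraries of its erythroid level for Pklr.

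The comparison between run codes asked which isoenzymes differed between the runs. In simulated data the edgeR test between B and D recovered 16% of changes of log2 1 and 75% of changes of log2 2. A member that did not pass is therefore not shown to be stable. No member passed the edgeR test between runs A and B or A and D, where no gene of 12952 passed either (0%). With DESeq2, 556 genes passed between A and B and 8 between A and D (3.85% and 0.0541% of the genes tested). At an unadjusted p under 0.05 there were 13.6% and 5.41% of the genes. Between B and D, 2.30% of the genes passed (5 higher and 293 lower in D) and no member did. At an unadjusted p under 0.05 there were 2 members in each comparison, and 11.3% of all genes between B and D. DESeq2 called Hk1 between A and B and Pklr between B and D, where it called 3.85% and 4.80% of all genes tested.

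Hk1 averaged 2211 ± 322 normalized counts in run B (SD, n = 5) and 1358 ± 180 in run D (SD, n = 4). The lowest library of run B had 1746 and the highest of run D 1542. How many of all genes separated these runs in the same way was not counted. The log2 difference of D minus B was -0.69 ± 0.23 (SE, adjusted p = 0.19). Pklr averaged 183 ± 26.1 in run B and 79.6 ± 20.8 in run D. Its log2 difference was -1.18 ± 0.35 (adjusted p = 0.12), and the adjusted p was 0.030 with DESeq2 and 0.043 by edgeR without control 3. The erythroid level was also higher in run B than in run D, and its part in these differences was not tested.

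Hk2, Hk3 and Slc2a3 ranged widely within single runs. In run B alone, Slc2a3 went from 511 to 4822, Hk3 from 192 to 1791 and Hk2 from 210.4 to 1640.2. In run A the values were 145 to 751 for Slc2a3, 73.4 to 375 for Hk3 and 58.2 to 432 for Hk2, and these ranges overlapped those of runs B and D. The log2 differences of B minus A were 2.15 ± 0.88 for Slc2a3, 1.69 ± 0.94 for Hk3 and 1.65 ± 0.94 for Hk2 (adjusted p = 0.31, 0.46 and 0.47). Those of D minus A were 2.14 ± 0.90, 1.88 ± 0.97 and 2.10 ± 0.98 (adjusted p = 0.88, 0.92 and 0.92). Those of D minus B were -0.01 ± 0.73, 0.19 ± 0.80 and 0.45 ± 0.80 (adjusted p of at least 0.98). None of the 9 was past the threshold under any alternative.

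Among the members Ldhb had the widest step between neighbouring libraries, with at least 3 libraries on each side. It had 67.5 normalized counts in control 16, 75.2 in control 13, 124 in control 4 and 158 in control 2. The next lowest library, control 9, had 555, and the highest, control 3, had 1935. The step between 158 and 555 is 3.49-fold. Of all 8672 genes averaging 100 or more, 1.23% had a step as wide with at least 3 libraries on each side. The next widest steps were those of Slc2a3 (2.15-fold, as wide in 2.04% of genes) and Hk2 (1.80-fold, 2.86%). Both split the libraries into the same 9 and 7 as the step in the neutrophil level. The 4 low libraries belong to runs A, B, D and F. The raw counts there were at most 177, and at least 555 in the other 12.

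Ldha did not share this pattern. In controls 2, 4, 13 and 16 it had 10572, 5125, 9567 and 12647 normalized counts, which covers most of its range. Ldha therefore ran from 3.21 times Ldhb in control 10 to 187 times in control 16, with a median of 15.6. The measured protein-coding genes nearest to Ldhb in GRCr8 had narrower ranges. Golt1b ran from 73.9 in control 8 to 119 in control 3, Recql from 163 in control 8 to 409 in control 3 and Cmas from 1892 in control 11 to 6152 in control 10. The gene most like Ldhb over the 16 libraries was Fpgt, with r = 0.71. Because the libraries fell into separate clusters, no correlation of Ldhb with a cell marker level is given. Its fitted slopes did not pass on any of the 6 levels.

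**Figure D4:**
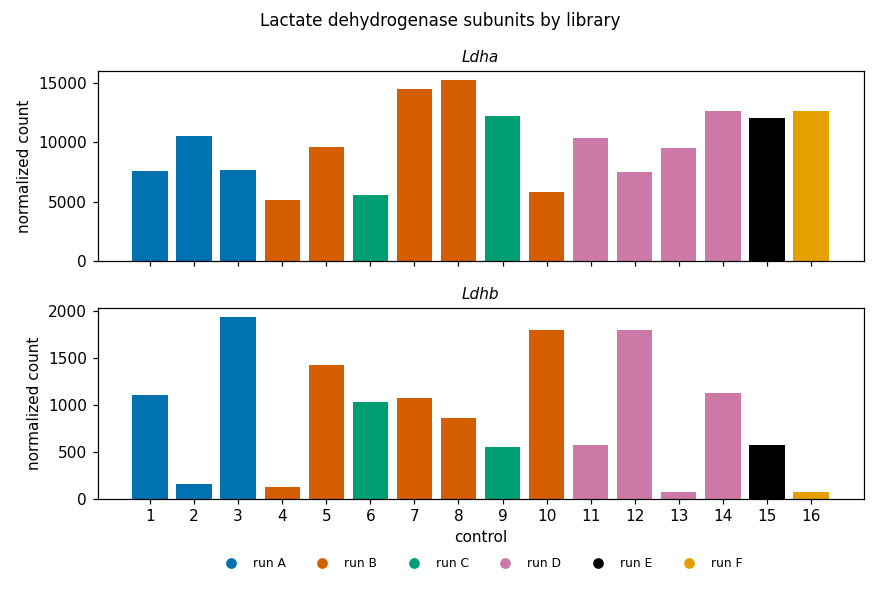
Normalized counts of the lactate dehydrogenase subunit genes in each of the 16 controls, with bars coloured by run code and axes from 0. Ldhb stays at or below 158 in controls 2, 4, 13 and 16 and is at least 555 in the other 12, while Ldha varies without such a step.

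The T-cell level (12 markers) ran from 9.83 in control 8 to 10.97 in control 12, and 5 members were lower where it was higher, with 11.0% of all genes tested called in that direction. The slopes were -3.48 ± 0.80 for Hk3 (adjusted p = 0.0093), -3.39 ± 0.79 for Hk2 (0.0095) and -3.19 ± 0.75 for Slc2a3 (0.010), all by edgeR. Ldha followed with -0.997 ± 0.310 (adjusted p = 0.034) and Aldoa with -1.24 ± 0.42 (adjusted p = 0.050, just past the threshold), and these calls were lost in 10 and 16 of the 21 alternatives. The T-cell and neutrophil levels had a correlation of -0.68 over the 16 libraries. Scaling by total counts moved the median slope of all genes on the T-cell level from 0.06 to 0.50, with 5501 genes higher and 35 lower in place of 836 and 1203, and no member was called under it. Without control 8 no member was called either, with adjusted p from 0.053 (Hk2) to 0.17 (Aldoa).

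On the B-cell level only Slc2a3 passed, with a slope of -2.28 ± 0.60 (adjusted p = 0.028), and 4.67% of all genes tested were called as lower. That call was lost in 6 of 21 alternatives, namely with scaling by total counts (adjusted p = 0.17), without controls 2 and 12 together (0.14) and without control 2, 3, 6 or 8 (0.089, 0.061, 0.064 and 0.16). The B-cell and neutrophil levels had a correlation of -0.70. No member passed on the monocyte level by edgeR or DESeq2, which called 0.0275% and 3.18% of all genes tested. By edgeR Aldoa had an unadjusted p under 0.05 there (slope 1.16 ± 0.39, adjusted p = 0.37), as had 10.5% of all genes. On the platelet level, 3.43% of all genes passed and no member did by edgeR. Aldoa (0.40 ± 0.12, adjusted p = 0.081), Ldha (0.31 ± 0.10, 0.14) and Pfkl (0.31 ± 0.11, 0.18) had unadjusted p under 0.05, as had 16.6% of all genes tested, and DESeq2 called Aldoa and Ldha and 5.52% of all genes.

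Of the other glycolysis genes, 25 of 26 symbols were listed and 19 could be tested against the marker levels. On the neutrophil level 10 were higher, 2 were lower (11.4% of all genes tested were lower) and 7 did not pass. The steepest were the lactate exporter Slc16a3 (0.52 ± 0.07, adjusted p = 1.8e-05), the glucose carrier Slc2a1 (0.49 ± 0.06, 9.8e-06) and Pfkfb3 (0.47 ± 0.08, 0.00020), whose product makes an activator of phosphofructokinase. Along the lower part of the pathway Tpi1, Gapdh, Pgk1, Pgam1, Eno1 and Pkm had slopes between 0.18 and 0.33, close to those of Ldha and Aldoa, and Ldhc had 0.33. The muscle isoenzymes Pfkm and Eno3 fell, with -0.17 ± 0.06 (adjusted p = 0.034) and -0.21 ± 0.06 (adjusted p = 0.011). Without control 8 the calls of Gapdh, Pkm, Pfkm and Eno3 were lost (adjusted p = 0.067, 0.094, 0.15 and 0.073). With scaling by total counts those of Pfkm, Eno3 and Pgam1 were lost (adjusted p = 0.44, 0.15 and 0.077). That of Ldhc was lost with the run code as a term (adjusted p = 0.067). Of 21 alternatives, the call of Pfkm was lost in 8 and that of Eno3 in 3.

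**Figure D5:**
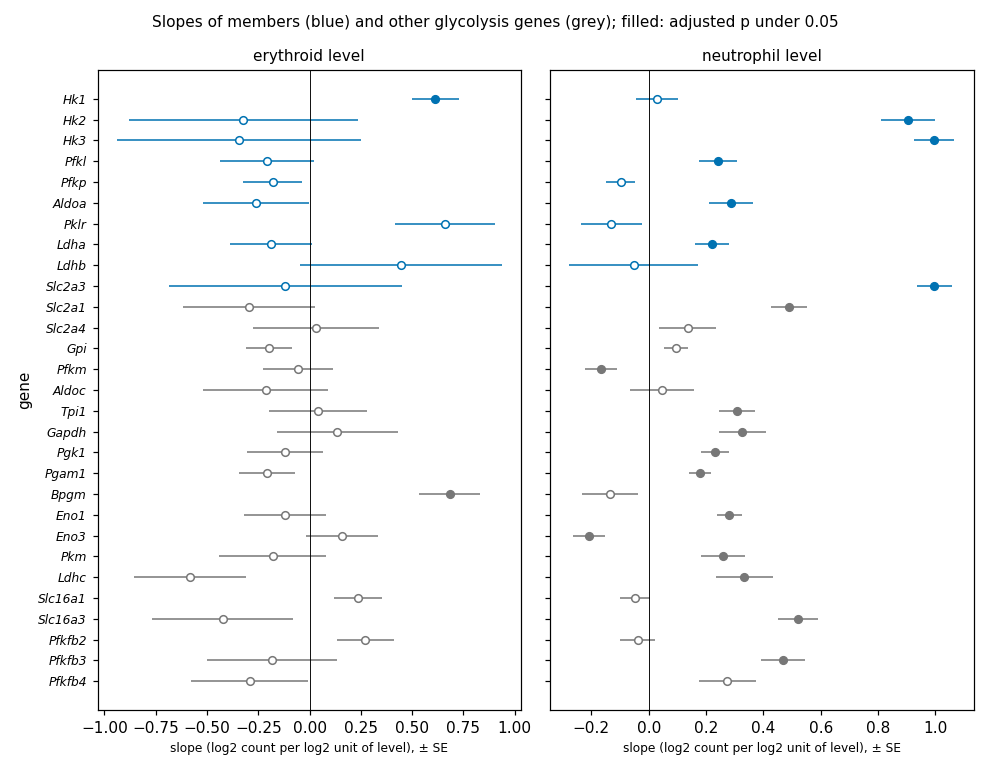
Slopes (log2 count per log2 unit of marker level, ± SE) of the 10 members (blue) and 19 other glycolysis genes (grey) on the erythroid level (left) and the neutrophil level (right), with filled points for an adjusted p under 0.05 and a different axis range in each panel. Hk1 and Bpgm are the filled points on the left, and Slc2a3, Hk3 and Hk2 lie near 1 on the right.

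On the erythroid level Bpgm alone passed among these 19. Its product makes 2,3-bisphosphoglycerate, which lowers the oxygen affinity of haemoglobin in red cells. Bpgm had 133412 normalized counts in control 11, a median of 224669 and 544465 in control 10. The slope was 0.68 ± 0.15 (adjusted p = 0.0055), and without control 10 it was 0.52 (adjusted p = 0.13). It was 0.49 to 0.75 in the 21 alternatives. The call was lost in 3 of them, including the run code as a term, under which no gene passed. On the platelet level Slc2a4 (0.66 ± 0.13, adjusted p = 0.0042), Aldoc (0.58 ± 0.13, 0.010), Pkm (0.56 ± 0.10, 0.0013) and Gapdh (0.52 ± 0.13, 0.026) were higher, with 3.11% of all genes tested called in that direction. The platelet level was 7.76 in control 10 and 9.48 or more in the others, and control 10 was also lowest for Slc2a4, Pkm and Gapdh. Without it the calls of Slc2a4 (0.53, adjusted p = 0.15) and Gapdh (0.73, adjusted p = 0.055) were lost and those of Aldoc and Pkm were not. On the T-cell level 8 genes were lower and Pfkm was higher (7.66% of all genes tested were higher), and on the B-cell level 4 were lower. Hkdc1, Eno2, Pgam2 and Pfkfb1 were among those too low to be tested, and the medians of these 4 were at most 18.3 normalized counts.

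The genes most like each member were taken over 8373 genes with a symbol, by Pearson's r of log2 levels over the same 16 libraries, as a description. Slc2a3 was closest to Dhrs9, Mmp8 and Fpr1 (r = 0.98 each), of which Mmp8 and Fpr1 are on the neutrophil list. Hk3 was closest to Rab44, C1rl and Bcl3 (0.98 each) and Hk2 to Fam160a2, Stat3 and Sema4a (0.97 each). Hk1 was closest to E2f2 (0.95), Zc3hav1 (0.95) and Gtlf3b (0.93). For Pklr the list was Fads2 (0.93), Acsl1 (0.88) and RGD1310507 (0.88), and for Ldha it was Rtn3 (0.96), the glycolysis gene Pgk1 (0.96) and Smim3 (0.93). Aldoa was closest to Nucb1 (0.93), Pfkl to Mvp (0.95) and Pfkp to Tbl3 (0.95).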

How the data were processed

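Whole blood RNA of 16 rats was sequenced as stranded paired ends. The authors clipped reads, aligned them with Bowtie 0.12.9 to the Ensembl transcriptome of build rn5 and ran RSEM 1.2.0. The deposited values are its estimated counts for each gene, not normalized. Of these values 19.3% to 27.1% per library were not whole, and all were rounded before tests. The study's replacement of outlying values was not applied. The lists of genes differ between files, so only the 18031 genes common to all files entered.

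Normalized counts were rounded counts divided by DESeq2 (1.42.0) size factors. Main tests used edgeR 4.0.16 in R 4.3.3 (TMM, filterByExpr, quasi-likelihood F-test), with Benjamini-Hochberg adjustment over all genes tested and a threshold of 0.05. Runs A, B and D shared 1 fit of 12 libraries. Slopes used 16 libraries and marker levels from genes with a mean of at least 100. Log2 levels used a pseudocount of 1. Correlations were tested two-sided with 100000 permutations, whose smallest p is 1e-05. The code was tested on simulated data. Labels number the animals but do not pair them. Run codes taken from file names were treated as batches. The paper repeated its experiment on several dates, and the labels give no date. A technical difference between runs and a difference between experiments therefore cannot be told apart, also where the run code was centred on or used as a term. A count of 3, the smallest taken as detected, was 0.0962 to 0.140 CPM, for counting error only.

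Named genes were the 10 members, the other glycolysis list and the 3 genes most like each member. The members and lists were chosen with earlier results of these data known. Alternatives were DESeq2, other scalings, no filter, the run code as a term and leaving out each library. The ratio tests, the steps, the correlations on either side of a step and the fits without controls 2 and 12 were added after seeing the data. Python 3.11.15 was used for tables and figures.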

Additional observations from a re-analysis of the deposited data

Results flagged for a closer look

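Each member was examined in run B (n = 5) and run D (n = 4) for a library standing apart from the rest. Normalized counts without logs were used. This makes 20 groups, and chance flags about 1 in 20 of them if values are normally distributed, which was not tested. In run B, Hk3 in control 8 had 1791 normalized counts and the next highest library 507, a gap of 0.803 of the range. Pfkl in control 8 had 941, the next highest 464, and the gap was 0.867 of the range. Control 8 also had the highest neutrophil level of the series, 14.25. Pfkp in control 4 had 736, the next highest 420.3, and the gap was 0.787 of the range. No member stood apart in run D. Ldhb, with its 4 low libraries spread over runs A, B, D and F, was not marked in this way.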

How the results depend on the processing

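No paired analysis was possible because all 16 libraries belong to 1 group. The mean log2 levels and isoenzyme ratios of the members moved by less than 1 SD under every alternative (190 and 68 values). Leaving out 1 of 16 libraries cannot move a mean by 1 SD, so the values of those settings do not test stability. Slopes stayed on their side of the threshold in 697 values, lost it in 68 and gained it in 8. No called slope or correlation changed sign, but 3 of the printed values that were not called did. The slope of Hk1 on the neutrophil level was -0.014 with scaling by total counts, -0.028 without controls 2 and 12, and -0.037 to 0.084 leaving out each library. The D minus B difference of Slc2a3 was 0.51 with scaling by total counts and -0.41 to 0.75 leaving out each library, and that of Hk3 was -0.47 to 1.18 (without controls 14 and 8).

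The percentage of genes called over the whole table depended more on the settings, and causes were not tested. Scaling by total counts gave 0.0463% between B and D, 0.440% for the erythroid, 10.3% for the neutrophil, 6.89% for the monocyte, 50.7% for the T-cell and 50.5% for the B-cell level. It moved the median of all genes by over 0.1 (log2) between A and B (to -0.50) and B and D (to 0.53), and on the erythroid (-0.19), monocyte (0.40), T-cell (0.50), B-cell (0.39) and platelet (0.10) levels. It also changed the split of higher and lower genes on the erythroid level from 792 and 8 to 41 and 7, and on the B-cell level from 461 and 510 to 5464 and 56. Without a filter on low counts more genes were tested, and 1.16% were called between B and D, 15.9% for the neutrophil, 2.77% for the monocyte, 9.85% for the T-cell and 4.89% for the B-cell level. DESeq2 called 3.85% between A and B, 0.0541% between A and D, 4.80% between B and D, 3.18% for the monocyte and 5.52% for the platelet level. With the run code as a term, edgeR called 0 genes for the erythroid and 0 for the monocyte level (517 and 1508 at an unadjusted p under 0.05), and DESeq2 was not run with this term. Without controls 2 and 12, chosen after seeing the data, edgeR called 0 genes for the monocyte level (567 at an unadjusted p under 0.05) and 1.67% for the B-cell level.

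Leaving out each library in turn gave 0 to 3.93% between A and B (highest without control 4), 0 to 0.0150% between A and D, 0.0155% to 5.44% between B and D (without controls 14 and 4), 3.74% to 7.91% for the erythroid level (lowest without control 10), 16.0% to 28.3% for the neutrophil level (lowest without control 8), 0 to 0.666% for the monocyte level, 1.69% to 25.2% for the T-cell level (lowest without control 8) and 1.43% to 17.3% for the B-cell level (without controls 8 and 4). Pklr, at 54.5 to 277 normalized counts, and Ldhb in its low libraries rest on few counts, and 16 libraries in 1 group limit what slopes within runs can show.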
